A study of Lates calcarifer with 24 samples.

Results

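The fatty acid elongases elovl5 and elovl1b were described in the liver of juvenile Asian seabass (Lates calcarifer) across 6 feed groups. These 2 genes were taken out of the 60080 probes of a custom 1-colour Agilent array, each measured by the single probe that the study's supplementary table pairs with its symbol. The elovl5 probe, CUST_4534_PI428621111, carries the array's transcript name SBRGG_13541, and the elovl1b probe, CUST_5314_PI428621111, carries SBRGG_05148. No other probe on the array has either transcript name. Both symbols were found among the 9 elovl genes that RefSeq lists for the Asian seabass assembly TLL_Latcal_v3, but the assembly behind the array design is not given in the sources used here, so no positions are printed. The study's methods name elovl5 as a gene added for its known response to dietary long-chain polyunsaturated fatty acids, although its text also lists elovl5 among the pathway genes that differed on the arrays of Groups B, C and D. A test of elovl5 in those groups is therefore not fully independent of its choice. The gene elovl1b was one of the transcripts selected because they differed on the arrays of Groups A to D, so its differences there and against Group A are given as a description with no test.

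Elongases of the elovl family are enzymes of the endoplasmic reticulum that carry out the first, rate-limiting condensation step by which a fatty acyl chain is made longer by a pair of carbons. Elovl5 acts mainly on polyunsaturated chains, on which it works alternately with the desaturase fads2 in the route from plant-derived fatty acids to the long-chain forms that are plentiful in fish oil. Elovl1 acts mainly on saturated and monounsaturated chains and yields very long-chain acyl groups for sphingolipids, a role known from mammals, and elovl1b is one of the pair of elovl1 genes in bony fish. In fish liver, transcripts of the polyunsaturated route are known to be raised where the diet is poor in long-chain polyunsaturated fatty acids.

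The sequences at hand for the 2 genes are the primers that the study designed for quantitative PCR of each transcript. They are shown as the sequences by which the study identified each gene, were not matched to the array probes, are written 5′ to 3′ in lower case with no part marked, and each is 20 bases long with 55% G and C.
elovl5 forward: gctcactgtagcgtgttagc
elovl5 reverse: ccatgagtagcagtgtgtgc
elovl1b forward: gccacaacatatacctggcg
elovl1b reverse: gagaaccagaacaaccaggc
The values below come from the arrays, and no PCR value was used.

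The labels give 4 fish and 4 arrays for each of the 6 groups, 24 arrays in all, and each array is taken here as 1 fish, although the study's methods name a larger number of fish per feed for RNA extraction. Group A received frozen baitfish and Groups B, C, D, E and F each received a different commercial pellet. All fish were fed for 61 days, from 107 to 168 days post-hatch, from a starting weight that the labels give as 77.3 g ± 22.4. Per the study's methods, the fish came from a single pairwise cross, the baitfish were given at a larger share of body weight than the pellets, Group F received a lower ration than the other pellet groups, and Group E stayed on a single pellet size. The tank or cage of each fish is not in the sources used here, so fish of 1 group may have shared one, and P-values measure the spread between these fish only. Groups are named by the letters in the sample labels. Whether C, D, E and F in the labels are the same feeds as those letters in the study's text, from which the ration of Group F and the pellet size of Group E are taken, could not be established from the signals, since no named transcript marks a feed.

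Spots well above background made up 20.4% to 36.0% of an array. The 24 arrays were spread over 3 slides with all 6 groups on each, and slide 1 was dimmer, with a 75th percentile of the processed signal of 22.2 to 32.9 on its arrays against 42.4 to 80.2 on the others. In the deposited table of processed values, 3 of the 24 columns, all labelled Group F, matched the scanner signals of another Group F array best. Group F means are the same either way, but the replicate number and slide given for replicates 2, 3 and 4 of Group F are those of the scanner files. The liver transcripts serpina1, a secreted protease inhibitor, and lbp, a secreted lipopolysaccharide-binding protein, were well above background on all 24 arrays and saturated on none.

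Levels are given as log2 of the quantile-normalized signal, a scale on which a step of 1 is a 2-fold difference. They compare fish for the same probe and do not rank the genes, since probes differ in brightness. In whole liver, fewer cells of a type and less RNA per cell cannot be told apart.

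The level of elovl5 was lowest in baitfish-fed fish and was higher in every pellet group, by 2.19-fold to 5.33-fold. The difference passed the test in Group D (4.32-fold) and for the 5 pellet groups as a whole (3.84-fold). In Groups B and C it was larger than in Group D but missed the threshold, and Group F lay nearest to Group A.

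In Group A, elovl5 was at 6.57, 5.25, 3.70 and 5.63 on the 4 arrays, a mean of 5.29 ± 1.20 (SD, n = 4). The signals of 5.25 and 3.70, on replicates 2 and 3, were not well above background, so the mean of Group A rests on 2 measured arrays and 2 dim ones. On all 20 pellet arrays elovl5 was well above background.

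In Group B, elovl5 was at 8.06, 7.85, 7.28 and 7.07, a mean of 7.56 ± 0.46 (SD, n = 4). In Group C the 4 arrays were at 7.80, 7.62, 8.22 and 7.17, a mean of 7.70 ± 0.44 (SD, n = 4). In Group D they were at 7.74, 6.65, 7.83 and 7.37, a mean of 7.40 ± 0.54 (SD, n = 4). Each of these 12 arrays was above the highest baitfish array, and the 3 groups overlapped one another. In Group E, elovl5 was at 7.63, 6.69, 7.08 and 6.84, a mean of 7.06 ± 0.41 (SD, n = 4), and the lowest of these arrays was just above the highest of Group A. In Group F it was at 7.58, 6.46, 6.28 and 5.36, a mean of 6.42 ± 0.91 (SD, n = 4). Only 1 of the 4 Group F arrays was above every array of Group A, so these groups overlapped.

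**Figure D1:**
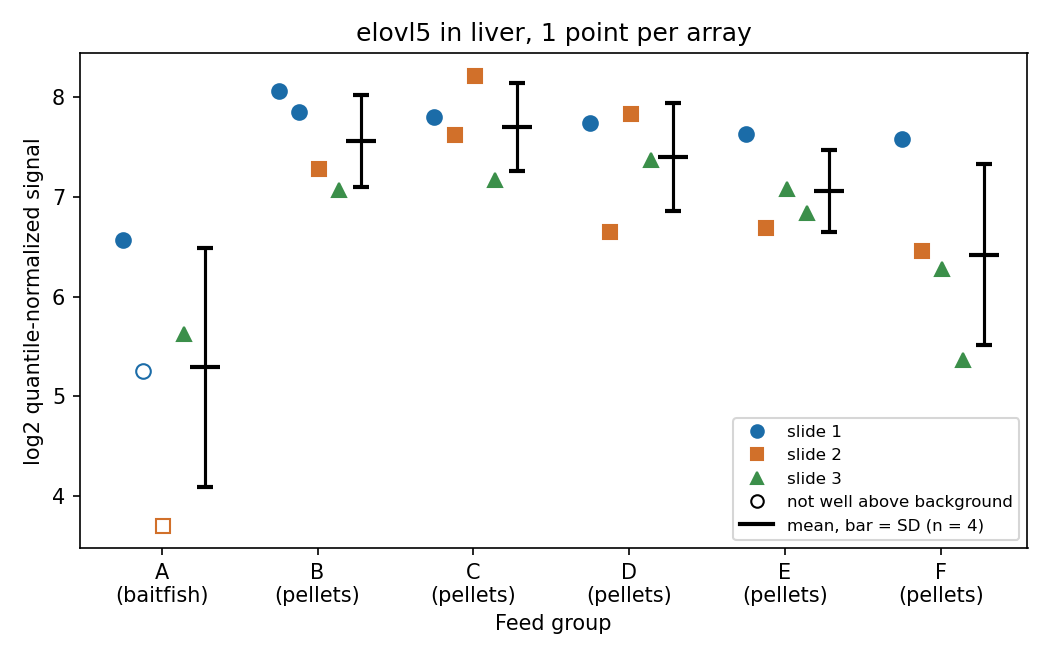
Level of elovl5 (log2 quantile-normalized signal) on each array by feed group, with marker shape for the slide, hollow markers where the spot was not well above background, and the mean with SD (n = 4) beside each group. The 4 arrays of Groups B, C, D and E all lie above the highest Group A array, at 6.57, whereas 3 of the 4 Group F arrays do not.

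Each pellet group was set against Group A in a limma fit over all 24 arrays, with P adjusted by Benjamini-Hochberg over the 60080 probes. A transcript was called when its adjusted P was under 0.05 and it differed at least 2-fold. The fit takes 1 spread for all groups, for elovl5 close to its SD within groups of 0.72. The elovl5 SD was 1.20 in Group A and 0.41 to 0.91 in the pellet groups. Its SE and intervals against Group A may therefore be too narrow, and its P-values too small. In Group D, elovl5 was higher by 2.11 on the log2 scale (SE 0.50, 95% interval 1.07 to 3.15, adjusted P = 0.0258) and was called, where 1.95% of all probes were called. In Group B the difference was 2.28 (95% interval 1.24 to 3.31, adjusted P = 0.0574), and 0.243% of all probes were called. In Group C it was 2.41 (95% interval 1.38 to 3.45, adjusted P = 0.0664), and 0.102% of all probes were called. The unadjusted limma P of elovl5 was smaller in Groups B (0.000193) and C (0.000103) than in Group D (0.000412), and the adjusted value depends also on how many other probes had small P-values in the same comparison.

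In Group E, elovl5 differed from Group A by 1.77 (95% interval 0.74 to 2.81), a 3.42-fold higher level with an adjusted P of 0.212, and 0.0266% of all probes were called. In Group F the difference was 1.13 (95% interval 0.10 to 2.17, adjusted P = 0.663), and 0.0316% of all probes were called. Neither difference passed the test, although all 4 arrays of Group E lay above Group A. Every array of Group B lay above every array of Group A for 1.85% of all probes, and the same held for 1.84% in Group C, 3.46% in Group D and 1.87% in Group E.

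Against the 5 pellet groups together, the level of elovl5 in baitfish-fed fish was lower by 1.94 (SE 0.38, 95% interval 1.14 to 2.74, adjusted P = 0.0125), and 1.23% of all probes were called in this comparison. It was above every Group A array in 17 of the 20 pellet-fed fish, the exceptions being 3 fish of Group F. No share over all probes is at hand for that count, so nothing is read from it. In an exact permutation test over the 10626 ways to choose 4 of the 24 arrays, 10 choices gave a difference at least as large (two-sided P = 0.000941). Since all 5 comparisons share the 4 fish of Group A, their differences are not independent of each other.

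The size of the elovl5 difference depended on the dim end of the signal. Raising replicates 2 and 3 of Group A to the lowest signal well above background on their arrays, 5.82 and 5.44, gave 1.70 in Group B, 1.84 in Group C, 1.54 in Group D (adjusted P = 0.0444), 1.20 in Group E, 0.56 in Group F and 1.36 for the pellet groups together. A normexp background correction was also used, with an offset of 50 added to every signal, which lifts low signals and by itself shrinks their log2 differences. The differences were then 1.1, 1.19, 0.95, 0.74 and 0.48 in Groups B to F and 0.89 for the pellet groups together. On the deposited processed values they were 1.18, 1.29, 1.07, 0.82 and 0.48, and 0.97 together. Every one of these differences kept its direction. The call for the pellet groups together was lost on both scales because the difference fell short of 2-fold, with adjusted P of 0.024 under normexp and 0.0159 on the deposited values, and the call in Group D was lost under normexp (adjusted P = 0.0534).

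Replicate 3 of Group A, the dimmest elovl5 array, was the only one whose removal ended the call for the pellet groups together (1.41, adjusted P = 0.0758). The call in Group D was lost without replicate 2 (adjusted P = 0.0555) or 3 of Group A (difference 1.58, adjusted P = 0.0894), and without replicate 1, 3 or 4 of Group D (adjusted P between 0.0688 and 0.087). The calls in Groups B and C were made without replicate 1 of Group A, the baitfish array with the highest elovl5 level. The differences were then 2.71 and 2.84 (adjusted P = 0.0214 and 0.0235), where 175 and 66 probes were called. Both calls were also made without replicate 1 or 4 of Group F (adjusted P between 0.0395 and 0.0492). There, 161 and 169 probes were called in Group B and 81 and 74 in Group C.

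The slide moved with the level of elovl5. After removal of the group means, the 8 arrays of slide 1 stood 0.52 above their groups on average and the 8 arrays of each of the other slides 0.26 below. Among fish of the same slide, elovl5 was higher than in Group A in all 5 pellet groups on all 3 slides. For Groups B to E this sign was fixed beforehand, since each of their arrays lay above every Group A array. Nothing is read from it. On slide 1 the differences were 2.04, 1.89, 1.83, 1.72 and 1.67 for Groups B to F. On slide 2, where the only Group A array is the dimmest one for elovl5, they were 3.58, 4.22, 3.54, 2.99 and 2.76. On slide 3 they were 1.44, 1.54, 1.74, 1.33 and 0.19. The difference of Group F was thus close to 0 on slide 3 and not on slide 1. With slide as a block in the fit, the differences were 2.28 in Group B (adjusted P = 0.0238), 2.62 in Group C (adjusted P = 0.0162), 2.32 in Group D (adjusted P = 0.00444), 1.98 in Group E (adjusted P = 0.0819) and 1.34 in Group F (adjusted P = 0.312). Groups B and C were called in that fit, as was Group D. The number of all probes called rose with it too, to 255, 90 and 1469 in Groups B, C and D from 146, 61 and 1171.

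**Figure D2:**
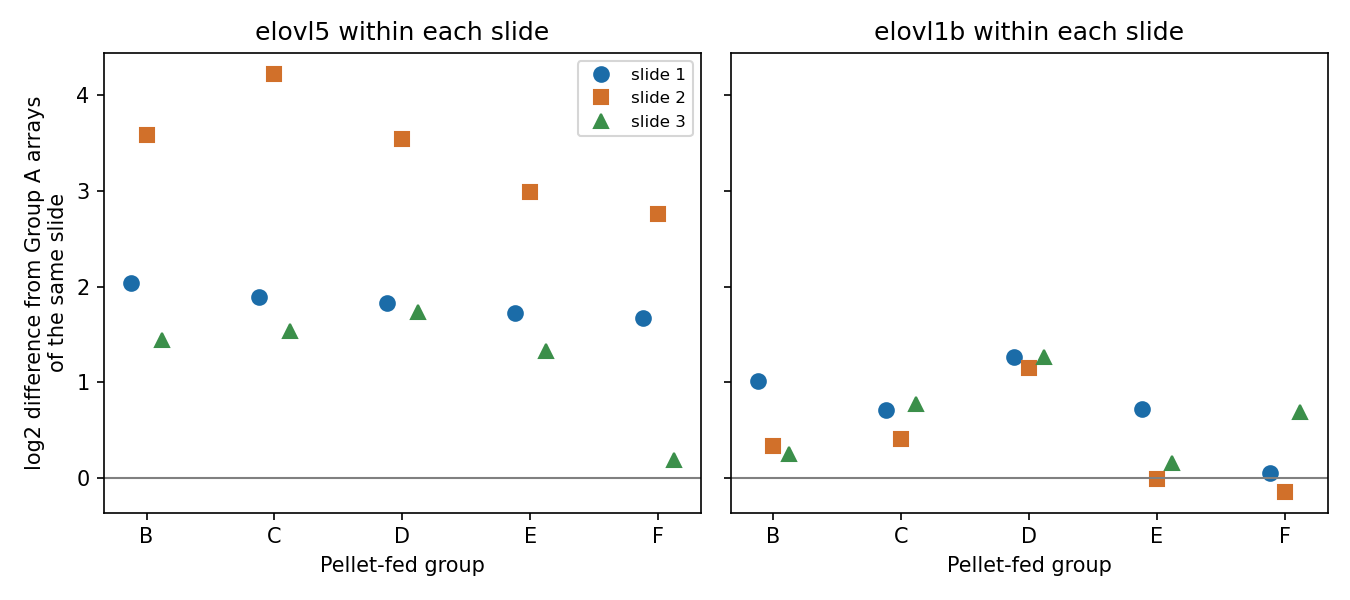
Difference of each pellet group from the Group A arrays of the same slide (log2), for elovl5 on the left and elovl1b on the right, with a point for each of the 3 slides. All 15 elovl5 points lie above 0, the slide 2 points highest, and the elovl1b points of Group D lie between 1.15 and 1.27. For elovl5 in Groups B to E that sign was fixed, since none of their arrays overlapped Group A.

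The order of the elovl5 means was C, B, D, E, F and A from high to low. Of the 10 pairs of pellet groups, none was called for elovl5 by limma, nor by the methods' t-test once its P was adjusted over all probes. At the methods' own unadjusted threshold for the methods' t-test, with no fold limit, 1 of the 10 pairs passed, Group C against Group F, a comparison that 2.72% of all probes passed. Groups B, C, D and E against Group A passed it too, comparisons that 4.62%, 4.09%, 7.45% and 4.93% of all probes passed. Unadjusted limma P was under 0.05 for 2 pairs, Group B against Group F (1.14, 95% interval 0.11 to 2.18, adjusted P = 0.88) and Group C against Group F (1.28, 95% interval 0.24 to 2.32, adjusted P = 0.986). For neighbours in the order, Group C stood above Group B by 0.14 (95% interval of B minus C, -1.17 to 0.90), Group B above Group D by 0.16 (-0.87 to 1.20), Group D above Group E by 0.34 (-0.70 to 1.38) and Group E above Group F by 0.64 (-0.40 to 1.68). None of these steps was larger than the spread between fish, and each interval leaves room for a 2-fold difference in 1 direction or the other. The share of all probes called was 0.00166% for B against C and for B against E, 0.00832% for B against D, 0.0117% for C against D, 0.00499% for C against E, 0.0483% for D against E, 0.0399% for D against F, and 0% for B, C and E against F.

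The level of elovl1b was highest in Group D, where it stood 2.38-fold above Group A, with every Group D fish above every fish of the other 5 groups, which held for 0.0866% of all probes, a share from which nothing is read since elovl1b was chosen on these arrays. In Groups B and C it stood 1.57-fold and 1.53-fold above Group A with no overlap, which held for 1.85% and 1.84% of all probes. Nothing is read from these shares either. In Groups E and F it stood 1.19-fold and 1.25-fold above Group A with overlap. The probe was well above background on all 24 arrays and saturated on none. No test is given for these differences, for the reason stated at the start.

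In Group A, elovl1b was at 8.63, 8.21, 8.59 and 8.40, a mean of 8.46 ± 0.19 (SD, n = 4). In Group B it was at 9.41, 9.45, 8.93 and 8.65, a mean of 9.11 ± 0.39 (SD, n = 4). In Group C it was at 9.13, 9.09, 8.91 and 9.17, a mean of 9.07 ± 0.11 (SD, n = 4). All 8 arrays of Groups B and C were above the highest baitfish array, by a narrow margin for replicate 4 of Group B. In Group D, elovl1b was at 9.69, 9.82, 9.66 and 9.67, a mean of 9.71 ± 0.07 (SD, n = 4). The lowest Group D array, at 9.66, was above the highest array of any other group, at 9.45 in Group B, and this was the tightest group of either gene.

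In Group E, elovl1b was at 9.14, 8.58, 8.60 and 8.53, a mean of 8.71 ± 0.29 (SD, n = 4). In Group F it was at 8.48, 8.45, 9.09 and 9.08, a mean of 8.78 ± 0.36 (SD, n = 4). Of these, 1 array of Group E and 2 of Group F were above every baitfish array, and the Group F fish fell into a lower and a higher pair. Over all pellet-fed fish, 15 of 20 were above every Group A fish. A share over all probes is not at hand for that count, so nothing is read from it.

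**Figure D3:**
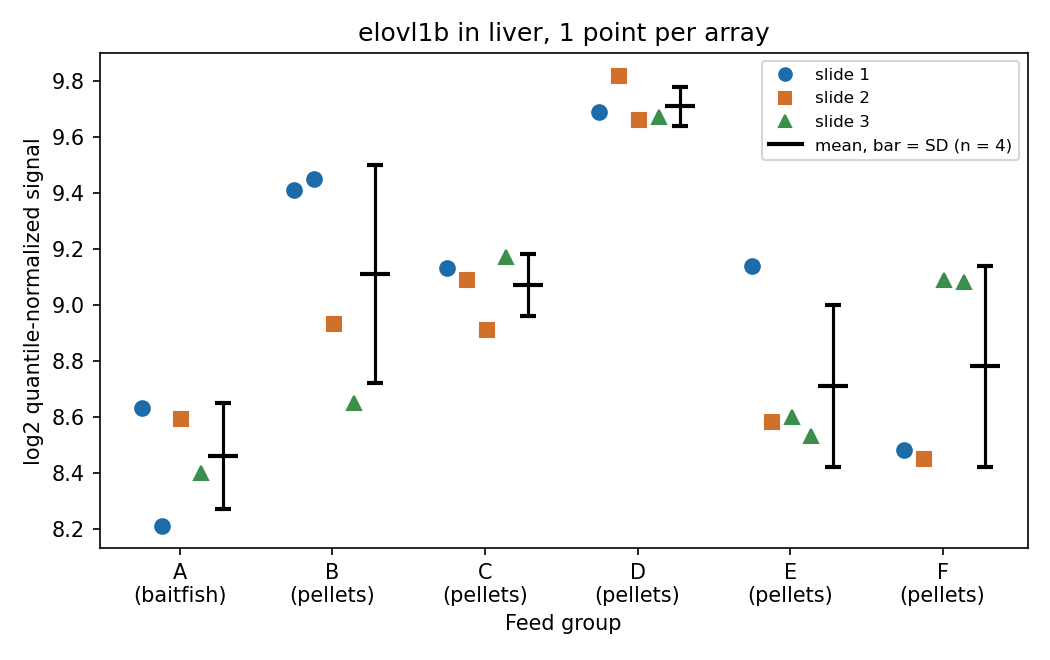
Level of elovl1b (log2 quantile-normalized signal) on each array by feed group, with marker shape for the slide and the mean with SD (n = 4) beside each group. The 4 Group D arrays, at 9.66 to 9.82, lie above all others, and Groups E and F overlap Group A.

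On the log2 scale, elovl1b differed from Group A by 0.65 in Group B (SE 0.19, 95% interval 0.26 to 1.05), 0.62 in Group C (0.22 to 1.01) and 1.25 in Group D (0.86 to 1.65). In Groups E and F the differences were 0.25 (-0.14 to 0.65) and 0.32 (-0.08 to 0.71). The intervals given here for elovl1b are those of differences of means, from 1 spread for all groups close to its SD within groups of 0.27. Its SD was 0.07 in Group D and 0.39 in Group B. The intervals may therefore be too wide for Group D and too narrow for Group B. They are not read against 0, since the gene was picked for differing between groups in this experiment. Group D stood above Group B by 0.60, above Group C by 0.64, above Group E by 1.0 and above Group F by 0.93. The order of the means was D, B, C, F, E and A, in which B and C lay 0.03 apart (95% interval -0.36 to 0.43).

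By the study's letters, Groups E and F were not used in the choice of elovl1b, so the difference between them was tested. Since the match of these letters to the labels could not be established, the test may not be independent of that choice. Group E was lower than Group F by 0.07 (95% interval -0.46 to 0.33, adjusted P = 1 in limma, unadjusted P = 0.733), so no difference was detected and the interval excludes a 2-fold one. Without replicate 3 or 4 of Group F the sign turned, to 0.04.

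The difference of elovl1b in Group D was nearly the same on each slide, at 1.27, 1.15 and 1.27 on slides 1, 2 and 3. For Group C the slides gave 0.71, 0.41 and 0.77, and for Group B 1.01, 0.34 and 0.25. For Group E they gave 0.72, -0.01 and 0.16, and for Group F 0.06, -0.14 and 0.69. The higher level in Groups E and F was therefore not seen on every slide, whereas that in Groups B, C and D was. For Groups B, C and D this was fixed beforehand, since each of their arrays lay above every Group A array. Nothing is read from that contrast. Mean deviations from the group means by slide were 0.09, -0.08 and -0.02, smaller than those of elovl5. Under normexp and on the deposited values the differences of elovl1b moved little, and over the alternatives that of Group D ranged from 1.1 to 1.32.

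**Figure D4:**
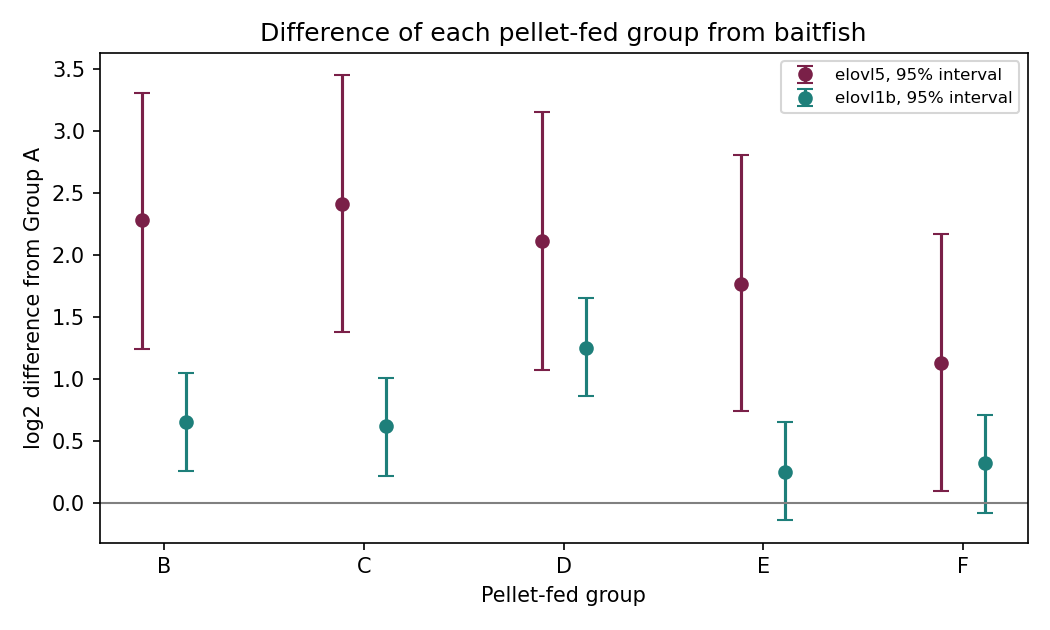
Difference of each pellet group from Group A (log2) for elovl5 and elovl1b, with 95% intervals from the fit over 24 arrays. The elovl5 values lie between 2.41 in Group C and 1.13 in Group F with wide intervals, and the elovl1b value is highest in Group D, at 1.25.

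Set side by side, the 2 elongases were both lowest in Group A but differed in which pellet group stood highest. The mean of each pellet group was above that of Group A for both, which held for 17.2% of all probes. Group C had the highest mean of elovl5 and only the third of elovl1b, while Group D had the highest of elovl1b and the third of elovl5. The spread between fish within groups was larger for elovl5 (SD 0.72) than for elovl1b (SD 0.27).

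On the same array the elovl1b signal minus the elovl5 signal has no meaning by itself, since the probes differ, but its change between groups does not depend on a constant scaling of an array. In Group A this difference was 2.06, 2.96, 4.89 and 2.77, a mean of 3.17 ± 1.21 (SD, n = 4), of which 2.96 and 4.89 rest on the dim elovl5 signals and were 2.39 and 3.15 with those raised. Its mean was 1.55 ± 0.13 in Group B, 1.37 ± 0.54 in Group C, 2.31 ± 0.61 in Group D, 1.65 ± 0.17 in Group E and 2.36 ± 1.20 in Group F (SD, n = 4 each). All arrays of Groups B, C and E were below the lowest array of Group A, at 2.06, on which elovl5 was well above background, and Groups D and F overlapped it. The margin was narrow, with replicate 4 of Group C at 2.01. A share over other pairs of probes is not at hand, so nothing is read from this lack of overlap. The rule by which elovl1b was chosen bears on these values too, so they were not tested.

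Across all 24 arrays the levels of elovl5 and elovl1b had a Pearson r of 0.49 and a Spearman rho of 0.56. These values hold the differences between groups and the shared slides, so they are a description, and among the 20 pellet arrays alone r was 0.27. Within groups, after each group's mean was taken off, r was -0.03 (permutation P = 0.904, 3 relations tested, adjusted P = 0.912) and rho was 0.03 (permutation P = 0.896, adjusted P = 0.896). Without the 2 arrays farthest from the median on elovl5, r was -0.05, and with slide means also taken off it was -0.28. On slides 1, 2 and 3 the values were -0.01, -0.62 and -0.28 over 8 arrays each. No relation between fish of the same group was detected, and fish with more elovl5 than their group did not have a measurably higher or lower elovl1b.

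**Figure D5:**
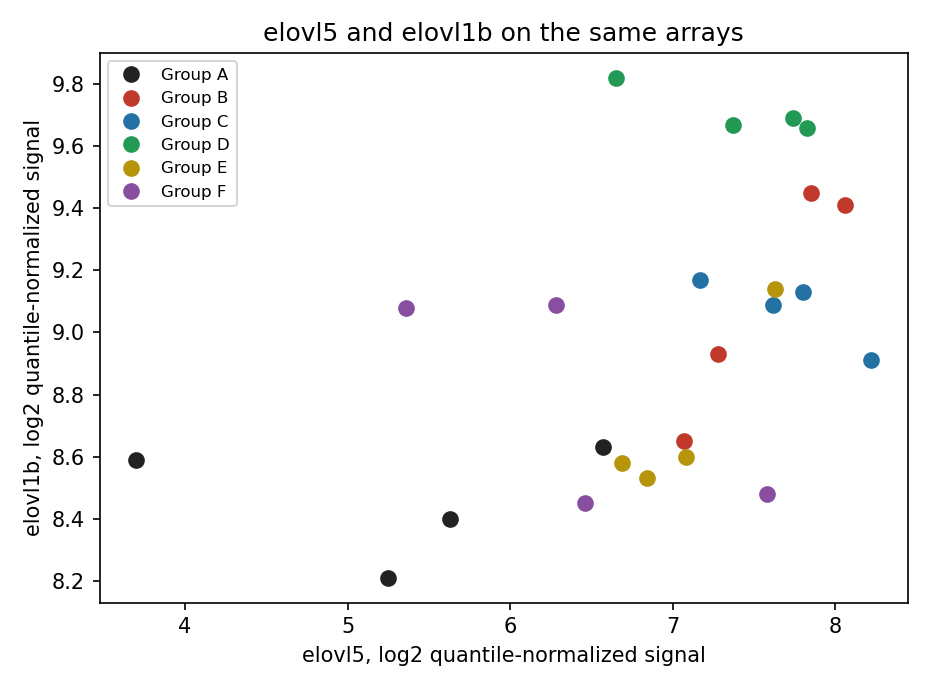
Level of elovl1b against level of elovl5 (both log2 quantile-normalized signal), 1 point per array, coloured by group. Group A lies at the lower left and Group D along the top, and within a group the points show no common slope (r = -0.03).

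The desaturase fads2 acts with elovl5 in polyunsaturated fatty acid synthesis. By limma it was called in Group D (4.37, adjusted P = 0.00422), where 1.95% of all probes were called. For the pellet groups together it was called too (3.46, adjusted P = 0.00611), with 1.23% of all probes. It was not called in Groups B, C, E and F (2.7, 3.26, 3.59 and 3.38, adjusted P = 0.205, 0.138, 0.103 and 0.167). The SD of fads2 was widest in Group A, at 2.14, and the fit takes 1 spread for all groups. As with elovl5, the study's text lists fads2 among the pathway genes that differed on these arrays. Its tests are therefore not fully independent of its choice. In Group A it was well above background on 2 of the 4 arrays, and with the dim arrays raised as for elovl5 the difference of Group D was 3.75. Its deviations within groups had an r of 0.05 with those of elovl5 (permutation P = 0.912) and of 0.15 with those of elovl1b (permutation P = 0.459), with an adjusted P of 0.912 for both.

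The 15 named probes were nearly all chosen by the study for their values on these arrays, so their counts describe the list and are no independent evidence. In the comparison of Group D with Group A, 10 of the 15 were called higher and 2 lower, where 1.95% of all probes were called, with a median of 1.25 against -0.01 over all probes. In Group B 3 of the 15 were called higher, where 0.243% of all probes were called, and neither elongase was among them. None of the 15 was called by limma in Groups C, E and F, where 11, 9 and 8 of the 15 had an unadjusted limma P under 0.05. The methods' t-test gave 10, 10 and 4 of the 15 before adjustment and 0 after it in the same groups. Before adjustment, 4.09%, 4.93% and 3.6% of all probes passed that same test in Groups C, E and F. A share over all probes is not at hand for unadjusted limma P, so nothing is read from those counts. The named transcripts most like elovl5 over the 24 arrays were tlr8a, a receptor of innate immunity, with an r of 0.73, and lbp with 0.70. Those most like elovl1b were acp5a, an acid phosphatase, with 0.72, and tnfsf14, a cytokine, with 0.67. Within groups, r with elovl5 was 0.25 for tlr8a and 0.43 for lbp. Within groups, r with elovl1b was -0.09 for acp5a and -0.03 for tnfsf14, so their likeness to elovl1b lay between group means. The transcript of serpina1 ran the other way, with an r of -0.63 for elovl5 and -0.78 for elovl1b, and of -0.58 and -0.45 within groups. Slide was not removed from these values. On slide 1, elovl5 stood 0.52 above its groups on average. The slide 1 arrays of Groups A, B, E and F had less serpina1 than the other arrays of their group, those of C and D not. Each slide held all 6 groups, so slide could be taken off, but its part in these r values was not tested.

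The cell type markers are among the 15 named probes, nearly all chosen for their values on these arrays. Their differences between groups are therefore a description. All 3 transcripts of the immune list (tlr8a, tnfsf14 and acp5a) were well above background on some arrays, 15, 21 and 21 of the 24, but in Group A on 0, 1 and 1 of 4, so the Group A sum is mostly signal near background. Their summed linear signal was 85 to 109 in Group A, 260 to 366 in Group B, 206 to 305 in Group C, 472 to 638 in Group D, 129 to 343 in Group E and 159 to 343 in Group F. Like elovl1b, this sum was highest in Group D with no overlap with the other groups. Nothing is read from that likeness, given how these transcripts were chosen. The summed signal of the hepatocyte list (serpina1 and lbp) was 220000 to 376000 in Group A and 128000 to 175000 in Group D, and reached from 117000 to 361000 in the other groups. That sum is serpina1 nearly alone, at a mean log2 level of 18.21 in Group A and 17.16 in Group D, while lbp ran the other way, at 7.81 and 10.16. The part of either in the levels of elovl5 and elovl1b was not tested.

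Among the 14202 probes well above background on at least 12 arrays, the levels of SBRGG_59643 (probe CUST_14537_PI428621111) and SBRGG_19674 (CUST_41241_PI428621111) were most like those of elovl5 over the 24 arrays, with an r of 0.89 and 0.88. For SBRGG_59643, well above background on 2 of the 4 Group A arrays, the log2 differences from Group A were 2.90, 3.07, 3.01, 1.95 and 1.45 in Groups B to F with the dim Group A arrays raised. For SBRGG_19674, well above background on all 24 arrays, they were 0.98, 0.83, 0.89, 0.74 and 0.42. In both, Group F was nearest to Group A, as it was for elovl5, a likeness that their choice by r over the same arrays favours.

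For elovl1b the most alike were SBRGG_08450 (CUST_34588_PI428621111) and SBRGG_30834 (CUST_20854_PI428621111), with an r of 0.87 and 0.83. SBRGG_08450 was not well above background on any Group A array, so its difference has only a bound, at least 2.15-fold higher in Group B, at least 2.44-fold in Group C and at least 11.5-fold in Group D, with the Group A arrays raised to the lowest signal well above background, and no bound above 1 in Groups E and F. The log2 differences of SBRGG_30834 were 0.96, 0.83, 1.61, 0.61 and 0.47 in Groups B to F. Both were highest in Group D. Within groups, the r with elovl1b was 0.45 and 0.29, against 0.68 and 0.74 for the pair most like elovl5, with slide not removed. The probes were picked for the highest r of many over arrays of all groups. Their r values and their shared order of groups are therefore a description. No gene names are paired with these 4 transcripts in the sources used here.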

How the data were processed

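Liver RNA was hybridised to 24 1-colour Agilent arrays. The authors deposited spot intensities and flags written by Agilent Feature Extraction 10.7.1.1, per the file headers, and a table of log2 values that the authors made by quantile normalization in Partek. The offset and any batch term of that table are not given in the sources used here, and each of its columns has a median of 6.25.

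The background-subtracted processed intensity was used. Control spots were left out, outlier spots masked and repeat spots averaged, which left 60080 probes, 48 of them with a missing value. Values were quantile-normalized over the 24 arrays and log2-transformed with no filter on dim probes. limma 3.58.1 in R 4.3.3 was fitted with feed group as the only factor, and P was adjusted by Benjamini-Hochberg over all probes of a comparison. The number of arrays limits the precision. Correlations within groups used 100000 shuffles of arrays within groups, two-sided, in scipy 1.17.1. In simulated data for Group B against Group A, 39% of 200 probes changed by 2 on the log2 scale were called among 60032, with 5 false calls. No 2 arrays held identical values.

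The members, the gene lists and the tests were chosen with earlier results of these data known. The genes named are elovl5, elovl1b, fads2, the cell type markers and, for each elongase, the 2 probes most correlated with it. The other named probes are given as counts, and those that ran most like an elongase, or opposite to it, were picked after their values were seen. Alternatives covered scaling, background correction, the deposited values, outlier spots, dim probes, slide, replicate number, arrays fitted, the variance model, the methods' t-test and leaving out each array. The supplementary table's own fold changes were not used.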

Additional observations from a re-analysis of the deposited data

Results flagged for a closer look

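Dixon's test was applied to the 12 sets of 4 arrays, 6 groups for each elongase, and flagged 2, where chance flags about 1 set in 20. In Group E, elovl1b was at 9.14 in replicate 1, on slide 1, and at 8.53 to 8.60 in the other 3 fish (gap over range 0.892). In Group D, elovl1b was at 9.82 in replicate 2, on slide 2, and at 9.66 to 9.69 in the others (gap over range 0.834), a range narrower than that of any other set.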

How the results depend on the processing

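Of 1088 values recomputed under alternatives, 972 were labelled the same. For tested differences and the correlation, this means the same direction and side of the threshold. For counts of probes called and untested differences, it means a value not far from the main one. Many alternatives left out an array of a group outside the comparison, which can change the difference little, so 972 does not measure robustness. For elovl5 in Groups B and C, adjusted P passed the threshold with slide as a block (0.0238 at 2.28 and 0.0162 at 2.62), where 255 and 90 probes were called. The same held with a replicate block (0.0312 at 2.28 and 0.0282 at 2.41), where 206 and 108 probes were called. In Group B it held with a replicate block together with slide (0.0493 at 2.28), where 158 probes were called. In both groups adjusted P also passed with dim probes left out (0.0137 at 2.28 and 0.0152 at 2.41), where 486 and 206 probes were called. That filter goes by signal well above background, which elovl5 had on all 20 pellet arrays but on 2 of 4 in Group A. No support for the difference is drawn from it. In Groups B and C, adjusted P missed the threshold with scaling to the 75th percentile (0.0767 and 0.0745) and with normexp (0.0816 and 0.0786). It also missed on the deposited values (0.0619 and 0.0569) and with variances not moderated (0.0827 and 0.0958). With only the 2 groups fitted it was 0.452 and 0.453, and in the methods' t-test 0.739 and 0.796. The call in Group D was lost under normexp (0.95) and with only the 2 groups fitted (2.11, adjusted P = 0.26). It was also lost in the methods' t-test after adjustment over all probes (2.11, adjusted P = 0.421, unadjusted P = 0.0181). The last 2 had fewer arrays behind the spread, and the wide spread of Group A made up more of it. The call for the pellet groups together fell to under 2-fold with normexp (0.89) and on the deposited values (0.97). Leaving out 1 array at a time gave 1.75 to 2.71 in Group B, 1.89 to 2.84 in Group C, 1.58 to 2.54 in Group D, 1.25 to 2.21 in Group E, 0.60 to 1.56 in Group F and 1.41 to 2.37 together. The call was kept in 19 of 24 for Group D and was made in 3 of 24 for each of Groups B and C. Within slides, elovl5 moved to 3.58 and 1.44 (Group B), 4.22 and 1.54 (C), 3.54 (D), 2.99 (E), and 2.76 and 0.19 (F), and elovl1b to 1.01, 0.34 and 0.25 (B), 0.72 and -0.01 (E), and -0.14 and 0.69 (F).

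Signs turned for small differences. For elovl5, B minus D was -0.04 with slide as a block and -0.09 to 0.33 with 1 array left out, and B minus C was -0.32 to 0.04. For elovl1b, E minus F was -0.21 to 0.04. The correlation within groups was 0.04 with normexp, 0.06 on the deposited values and -0.14 to 0.12 with 1 array left out. The causes were not tested.

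The number of probes called depended on the alternative, from 8 to 486 in Group B (main 146), 5 to 206 in C (61), 283 to 1544 in D (1171), 0 to 290 in E (16), 4 to 125 in F (19) and 250 to 1056 together (737). Leaving out 1 array gave 30 to 267, 20 to 100, 734 to 1268, 3 to 216, 13 to 50 and 402 to 824. Arrays with the same replicate number are not stated to be paired. Their deviations had a mean r of 0.16 over 60 pairs, 39 of them over 0.1 and the lowest -0.40, against -0.05 for other numbers, and 15 of 24 arrays were closest to their own number. The number largely goes with the slide, since every replicate 1 was on slide 1 and every replicate 4 on slide 3. Slide was not removed from these deviations, so these values do not tell pairing and slide apart. Replicate numbers in Group F are also uncertain. The replicate block moved the calls in C from 61 to 108 and in F from 19 to 38.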
